A study of Mus musculus with 24 samples.

Results

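The expression and chromatin of 9 genes typical of mast cells and basophils were followed through the series: the protease genes Cma1, Cpa3, Mcpt8 and Prss34, the histidine decarboxylase gene Hdc, the IgE receptor genes Fcer1a and Ms4a2, and the transcription factor genes Gata1 and Gata2. They were chosen by name, and all 9 were found among the 22371 genes of the RNA-seq tables. Their reads and RPKM were taken from those tables, together with every listed ChIP-seq peak and methylation region within 50 kb of each gene's span.

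The cells came from mouse bone marrow and had been immortalized by HOXA9, a homeobox protein that holds myeloid progenitors in a dividing state. All cells compared here carried a vector for IDH1 R132H, a mutant isocitrate dehydrogenase that makes 2-hydroxyglutarate, an inhibitor of the TET enzymes that oxidise methylated cytosine. The medium of every group held IL-3 at 6 ng/ml, IL-6 at 10 ng/ml and SCF (stem cell factor) at 20 ng/ml. One group was untreated, and the other received vitamin C, a cofactor that keeps the iron of such enzymes reduced, to 0.345 mM at 0, 24 and 48 h before harvest at 72 h, while the labels give no harvest time for untreated cells. The series has 24 samples, each the single library of its group, and processed files of 18 were used. IDH1 wild-type cells entered only through the MeDIP-seq list named mutant, which belongs to their untreated sample. Single libraries leave no replicate check, so each difference below compares libraries and no p-value was calculated. The labels do not say how many clones or animals the cells came from, and HOXA9-driven growth in culture limits them as a model of mast cells or basophils.

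Mast cells and basophils are granulocytes of allergic reactions. Both bind IgE through the high-affinity receptor FceRI, made of an alpha chain (Fcer1a) that holds the antibody, a beta chain (Ms4a2) that amplifies the signal and a gamma chain (Fcer1g) that transmits it, and both release stored histamine and proteases when the receptor is crosslinked. GATA2 is needed for both lineages, GATA1 supports later mast cell steps as well as red cell and platelet formation, and IL-3 and SCF are growth factors of these cells in culture.

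Checked against their markers, the cells showed only part of this programme. Cpa3 was the sixth most abundant of all genes per length in the untreated library, and Mcpt8, Hdc, Gata2 and Cd200r3 were all above 20 RPKM, while Fcer1a had 0 and 4 reads. Further genes of mature mast cells or basophils had 0 reads in both libraries: the chymases Mcpt1, Mcpt4 and Mcpt9, the tryptase Tpsab1, which the annotation lists as a transcribed pseudogene, the receptors Mrgprb1 and Mrgprb2, the integrin Itga2 and the ectoenzyme Enpp3. The genes are therefore described as a list and not as a cell type. In bulk RNA, fewer cells of a type and less RNA per cell cannot be told apart. The RNA-seq tables summed to 86804487 reads untreated and 111453443 with vitamin C, and the intervals below come from these reads and cover counting error only.

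The 250 bases before the annotated start are shown for the members that were 2-fold or more apart between the libraries, or whose start lay in a PU.1 peak or in a histone peak of 1 library only. They are from RefSeq, build GRCm38.p6, written 5′ to 3′ on the gene's own strand and ending at the base before the start. Capitals mark each match to 1 of the motifs searched on both strands: AGATAA or TGATAA for GATA factors, AGGAAG or GAGGAA for PU.1, TGTGGT for RUNX, CACGTG or CATGTG for the E-box and TGACTCA or TGAGTCA for AP-1. On the opposite strand a match reads as its reverse complement.
Cma1, chr14:55944676-55944925, strand -: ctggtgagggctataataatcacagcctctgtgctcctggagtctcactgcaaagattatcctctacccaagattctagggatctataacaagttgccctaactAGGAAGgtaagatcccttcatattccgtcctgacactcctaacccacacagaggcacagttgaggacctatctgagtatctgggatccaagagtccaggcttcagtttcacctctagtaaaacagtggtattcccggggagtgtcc
Cpa3, chr3:20242182-20242431, strand -: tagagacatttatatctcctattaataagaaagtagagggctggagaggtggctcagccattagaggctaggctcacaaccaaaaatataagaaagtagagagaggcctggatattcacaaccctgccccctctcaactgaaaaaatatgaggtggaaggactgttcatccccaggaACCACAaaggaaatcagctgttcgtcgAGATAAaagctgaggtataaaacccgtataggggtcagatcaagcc
Mcpt8, chr14:56085198-56085447, strand -: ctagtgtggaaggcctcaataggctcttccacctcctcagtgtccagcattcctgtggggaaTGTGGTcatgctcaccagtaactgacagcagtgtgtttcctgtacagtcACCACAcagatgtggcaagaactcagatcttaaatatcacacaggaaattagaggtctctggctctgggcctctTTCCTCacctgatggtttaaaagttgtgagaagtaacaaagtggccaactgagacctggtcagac
Hdc, chr2:126618679-126618928, strand -: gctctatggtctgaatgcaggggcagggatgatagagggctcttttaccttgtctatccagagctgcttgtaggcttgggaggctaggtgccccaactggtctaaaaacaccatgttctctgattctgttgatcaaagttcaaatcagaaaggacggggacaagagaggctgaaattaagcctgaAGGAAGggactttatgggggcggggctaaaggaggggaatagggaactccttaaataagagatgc
Ms4a2, chr19:11623720-11623969, strand -: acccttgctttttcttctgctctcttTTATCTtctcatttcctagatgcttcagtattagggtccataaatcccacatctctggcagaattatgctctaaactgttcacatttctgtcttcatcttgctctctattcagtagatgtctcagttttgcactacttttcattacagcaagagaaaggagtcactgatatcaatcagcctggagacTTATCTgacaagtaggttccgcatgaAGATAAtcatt
Gata1, chrX:7967911-7968160, strand -: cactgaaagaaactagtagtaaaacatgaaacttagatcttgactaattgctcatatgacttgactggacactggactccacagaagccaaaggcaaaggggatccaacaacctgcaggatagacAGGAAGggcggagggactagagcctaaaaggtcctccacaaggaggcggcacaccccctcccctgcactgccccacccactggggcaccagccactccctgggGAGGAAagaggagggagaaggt
Gata2, chr6:88193641-88193890, strand +: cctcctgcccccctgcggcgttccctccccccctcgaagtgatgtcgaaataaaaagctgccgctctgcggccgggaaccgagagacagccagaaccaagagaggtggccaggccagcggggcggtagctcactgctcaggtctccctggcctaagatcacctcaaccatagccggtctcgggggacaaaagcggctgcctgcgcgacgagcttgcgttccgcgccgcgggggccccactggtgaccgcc

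Of 32851 such windows in the RefSeq table, 16.6% held a GATA match, 39.2% a PU.1 match, 14% a RUNX match, 17.6% an E-box match and 4.46% an AP-1 match. Ms4a2 had 3 GATA matches, the nearest 11 to 6 bases before its start, and Cpa3 had 1 at 46 to 41 bases. The windows of Prss34 and Fcer1a, not shown, also held GATA matches, at 31 to 26 bases and, on the opposite strand, 92 to 87 bases. Prss34 also had an E-box match, and Fcer1a had PU.1, RUNX and E-box matches. Hdc had a PU.1 match at 65 to 60 bases, Mcpt8 one on the opposite strand at 65 to 60 bases, Cma1 one at 146 to 141 bases, and Gata1 had 2, at 125 to 120 and at 22 to 17 bases. In the windows shown, RUNX matches stood before Cpa3 (73 to 68 bases, opposite strand) and Mcpt8 (188 to 183 and, on the opposite strand, 139 to 134 bases). Neither Gata2 window, the second of which lies before its inner start, held a match. A match is a description of letters and not a site of binding. The Ms4a2 window was 38.8% G or C and the Gata2 window shown 67.2%, against a median of 52.4% over all windows.

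RNA from 3 of the 9 genes was 2-fold or more higher in the vitamin C library: Cma1 (mast cell chymase), Ms4a2 (the IgE receptor beta chain) and Gata1. Another 5, among them the 4 most abundant, lay within 2-fold, and Fcer1a was too low to be counted as measured, which asked for 1 RPKM in 1 or both libraries. Thus 3 of 8 measured members were higher and 0 lower, where 2.38% of the 10436 measured genes were higher and 1.92% lower. The log2 change, taken as log2 of (RPKM with vitamin C + 0.5) over (RPKM untreated + 0.5), had a median of 0.52 over the 8, with 7 positive and 1 negative, against a median of −0.04 and 44.8% positive over all measured genes. The members were chosen with these changes known, so the counts describe them and support nothing further. The 3 higher genes also stood in the authors' deposited table of 450 higher genes, which was made from these same libraries, and 0 members stood in the authors' deposited table of 221 lower genes.

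**Figure D1:**
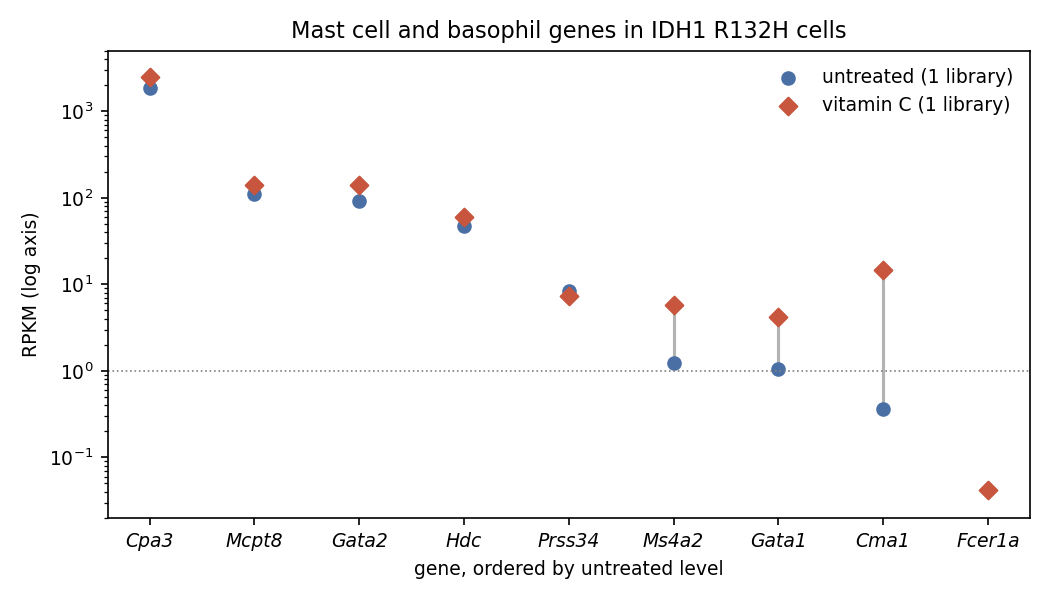
RPKM on a log axis for the 9 genes, ordered by untreated level, with 1 library per point (circles untreated, diamonds vitamin C) and a dotted line at 1 RPKM. Cpa3 stands highest at 1863 and 2488 RPKM, and the widest gaps are at the right, for Cma1, Ms4a2 and Gata1. The untreated level of Fcer1a is 0 and cannot be drawn on a log axis.

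Among the proteases, Cma1 had 28 reads untreated and 1458 with vitamin C, or 0.359 and 14.6 RPKM. The chymase transcript was thus near the detection range of this depth in 1 library and plainly present in the other, 40.8-fold higher (95% interval 28.1 to 61.5). Its log2 change was 4.14, and 5 of the measured genes had a larger one. Reads of near-identical chymase genes may have been assigned to one another, which makes its level uncertain, and this was not tested. Cma2, its neighbour, was listed with 0 and 1 reads, Mcpt2 with 2 and 10 and Mcpt4 with 0 in both.

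Cpa3, the granule carboxypeptidase stored with chymase, had 196679 and 335704 reads, or 1863 and 2488 RPKM. It took 0.227% of all reads untreated and 0.301% with vitamin C, and moved from rank 6 to rank 2 in RPKM. The ratio was 1.34 (1.33 to 1.34), so Cpa3 carried the largest absolute difference of the members with a small relative one. Mcpt8, a basophil granzyme-like protease, was at 110 and 140 RPKM, a ratio of 1.27 (1.24 to 1.31), from 6827 and 11120 reads. Prss34, a tryptase-like protease of basophils and mucosal mast cells, was the only member with a negative change: 743 and 822 reads gave 8.4 and 7.28 RPKM, a ratio of 0.867 (0.783 to 0.957). The 2 genes known best from basophils, Mcpt8 and Prss34, thus differed in opposite directions, both by less than 2-fold.

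Hdc encodes the enzyme that makes histamine from histidine. It had 21651 and 35719 reads, or 46.6 and 60.2 RPKM, a ratio of 1.29 (1.27 to 1.31). Its log2 change of 0.37 was close to those of Cpa3 (0.42) and Mcpt8 (0.35).

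The IgE receptor chains differed from one another in level. Ms4a2, the beta chain, had 119 reads untreated and 709 with vitamin C, or 1.23 and 5.78 RPKM, 4.68-fold higher (3.83 to 5.71). Its log2 change was 1.86, and 67 measured genes had a larger one. Fcer1a, the alpha chain, had 0 reads untreated and 4 with vitamin C (0.042 RPKM), which is at least 1.04-fold higher against a floor of 3 reads and not a detectable difference at this depth. Fcer1g, the gamma chain that myeloid cells also use for IgG receptors, was at 603 and 608 RPKM. So gamma chain RNA was abundant in both libraries, beta chain RNA was low, and that of the antibody-binding alpha chain was at or near 0.

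Both GATA genes were higher in the vitamin C library, by different factors. Gata2 had 22261 and 44159 reads, or 91.4 and 142 RPKM, a ratio of 1.55 (1.53 to 1.58) and a log2 change of 0.63, which moved it from rank 772 to rank 419. Gata1 had 188 and 955 reads, or 1.06 and 4.21 RPKM, 3.98-fold higher (3.4 to 4.67), with a log2 change of 1.60. Even with vitamin C, Gata1 RNA stood far below Gata2 RNA per length. The long non-coding RNA genes Gm39488 and Gm52419 overlap the span of Gata1, and Gm31320 overlaps Cpa3. The RNA library protocol was strand-specific, but whether reads were counted by strand is not given in the sources used here, so reads of such overlapping genes may have been counted together.

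Other genes of the programme were described from lists around the members, which are counted here without them. These lists, and those of other blood cells below, were chosen with earlier results of these data known, so their counts are descriptions only. Over all measured genes 2.38% were 2-fold or more higher and 1.92% lower, with a median log2 change of −0.04. Of 8 other mast cell and basophil proteases 1 was measured, the tryptase Tpsb2, at 0.874 and 1.53 RPKM, and 0 were past 2-fold. Of 12 other genes of IgE receptor signalling all 12 were measured, 1 was 2-fold or more higher and 0 lower, with a median log2 change of −0.01. The higher one was Lat, an adaptor that the receptor's kinases phosphorylate, at 8.14 and 18 RPKM. Its relative Lat2 was at 237 and 295 RPKM, the phospholipase gene Plcg2 at 102 and 72.2, and the kinase genes Btk at 94.1 and 77.7 and Lyn at 46.8 and 45.9, all within 2-fold.

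Mediator genes stood further apart. Of 11 measured genes for mediators and their storage, 5 were 2-fold or more higher and 0 lower, with a median of 0.99. The shares over all measured genes were 2.38% and 1.92%, and their median was −0.04. They were the lipoxygenase Alox5, which starts leukotriene synthesis (0.683 and 5.23 RPKM), the inducible cyclooxygenase Ptgs2 (0.962 and 8.85 RPKM), and the cytokines Il6 (6.9 and 45.4 RPKM), Il13 (20 and 252 reads) and Il4 (21 and 139 reads). Mouse Il6 RNA is distinct from the human IL-6 protein in the medium. Ndst2, which sulfates the heparin that packs granule proteases, went from 28.2 to 56.6 RPKM, a log2 change of 0.99 that lies just inside the threshold. The granule proteoglycan gene Srgn was at 736 and 1057 RPKM, Alox5ap at 188 and 204, and the amine transporter Slc18a2, which loads histamine into granules, at 23.1 and 35.8. Alox5, Ptgs2 and Il6 are also expressed by activated monocytes, and their cell of origin was not tested.

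Of 12 surface receptors 8 were measured, 1 was 2-fold or more higher and 1 lower. Il1rl1, the IL-33 receptor of mast cells and basophils, was at 11.3 and 27.2 RPKM. Kit, the SCF receptor on which mast cells depend, was at 32.1 and 5.07 RPKM, 6.32-fold lower, opposite in direction to Il1rl1 and to the 3 higher members. The tetraspanin gene Cd63 was at 536 and 670 RPKM and the integrin gene Itgb7 at 374 and 364. Csf2rb, the shared receptor chain for IL-3, was at 347 and 470 RPKM and its near-identical copy Csf2rb2 at 160 and 253, and reads may have been split between those copies. Among 14 partner transcription factors of GATA proteins, 0 were past 2-fold in either direction and the median was −0.24. Lyl1 was at 201 and 127 RPKM, Cebpa at 198 and 161, Ldb1 at 111 and 83.9 and Spi1, which encodes PU.1, at 105 and 83. Those 4, the most abundant, were lower with vitamin C. Lower too were Lmo2 at 85.9 and 58.6 RPKM, Zfpm1 at 53.8 and 35.2, and Cbfa2t3, Ikzf1, Stat5a and Stat5b. Only the remaining partners were higher, all within 2-fold. They were Gfi1b, a repressor in red cell and platelet formation, at 7.98 and 14 RPKM, Mitf, a factor of mast cell gene expression, at 5.31 and 7.34, Runx1 at 52.5 and 66.3 and Tal1 at 48.5 and 52.7.

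**Figure D2:**
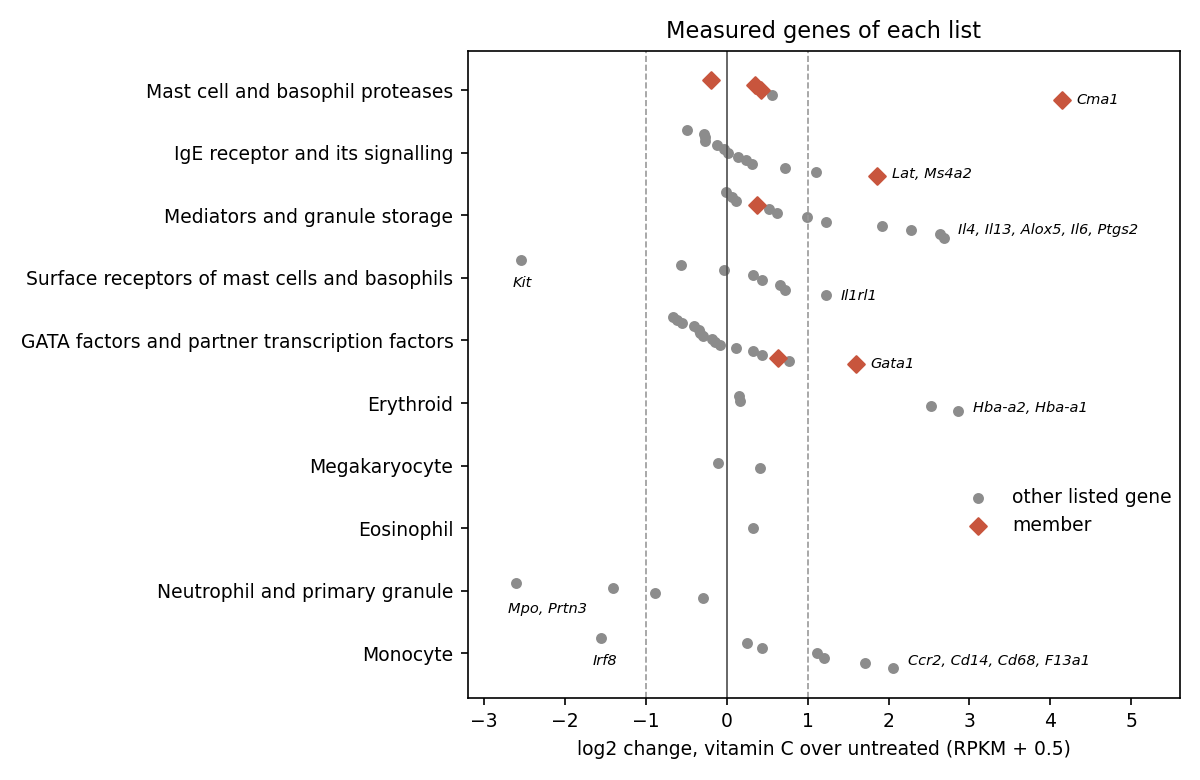
Log2 change of each measured gene (horizontal axis) in the lists around the members and in lists of other blood cells, with diamonds for the members and dashed lines at 2-fold. Genes past 2-fold are named from left to right beside each list. Cma1, Ms4a2 and Gata1 lie right of the dashed line, together with 5 mediator genes, Lat, Il1rl1, 2 erythroid genes and 4 monocyte genes. Kit lies at the far left of the surface receptors, and Mpo, Prtn3 and Irf8 also lie left of the dashed line.

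Markers of other blood cells were read in the same libraries. Monocyte genes summed to 1225 RPKM untreated and 1592 with vitamin C, with 7 of 7 measured, 4 higher (Cd14, F13a1, Cd68 and Ccr2) and 1 lower (Irf8). Most of that sum was Ly6c2, at 1122 and 1331 RPKM and within 2-fold. Genes of neutrophils and primary granules summed to 3230 and 1412 RPKM, with 4 of 8 measured, 0 higher and 2 lower, and Camp at 0. The lower ones were Mpo (796 and 131 RPKM) and Prtn3 (285 and 107 RPKM). Most of the sum was the cathepsin G gene Ctsg, at 2101 and 1136 RPKM and within 2-fold, and Elane was at 47.5 and 38.6. Of 10 erythroid genes 4 were measured and 2 were higher, the alpha-globin copies Hba-a1 (8 reads untreated, 311 with vitamin C) and Hba-a2 (11 reads untreated, 227 with vitamin C), which share sequence. The erythroid sum was 1308 and 1460 RPKM. Nearly all of it came from the beta-globin genes Hbb-bt (967 and 1071 RPKM) and Hbb-bs (340 and 380 RPKM), both within 2-fold. Alas2 and Slc4a1, which define red cell precursors and depend on GATA1, had 0 reads. Megakaryocyte genes summed to 161 and 154 RPKM, mostly Itga2b at 148 and 137, with 2 of 7 measured and 0 past 2-fold. Eosinophil genes summed to 21.2 and 26.7 RPKM with 1 of 7 measured, Siglecf, and Ear1, Ear2 and Epx at 0. The 9 members themselves summed to 2122 and 2862 RPKM, most of it Cpa3 at 1863 and 2488. These lists moved beside the members, and their part in the members' changes was not tested.

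Genes next to the members were read in the same way. Within 50 kb of the 9 spans lay 29 protein-coding genes, of which 8 were measured, with 0 past 2-fold in either direction on the scale of RPKM + 0.5. The largest change among them was that of Oosp1, 43670 bp from Ms4a2, with 102 and 47 reads, or 1.45 and 0.52 RPKM. Its log2 change was −0.94 on that scale, and by the plain ratio of RPKM it was more than 2-fold lower. Ctsg, the cathepsin G gene of primary granules, lies 14386 bp from Mcpt8 and had 2101 RPKM untreated and 1136 with vitamin C (log2 change −0.89), while Mcpt8 was at 110 and 140 RPKM. Ms4a3, 5709 bp from Ms4a2, was at 268 and 245 RPKM, and Hdac6, the measured neighbour of Gata1, at 6.08 and 6.98.

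Chromatin around the members was read from the peaks that the authors listed for each library. H3K4me3 marks promoters, H3K27ac active promoters and enhancers, and H3K4me1 mainly enhancers, while PU.1 and Runx1 are transcription factors of myeloid cells. Depth of the ChIP-seq libraries is unknown, and each list has its own length, so a peak present in 1 list only may lie just below the authors' threshold in the other. Peaks of 1 locus are not independent of each other. Of 50 untreated H3K4me1 peaks near the members, 28 (56%) overlapped no vitamin C peak, against 58.9% of the whole list, and of 44 with vitamin C, 17 (38.6%) overlapped no untreated peak, against 42.5%. For H3K27ac the shares were 6 of 42 (14.3%) untreated against 13.4%, and 8 of 46 (17.4%) with vitamin C against 11.2%. H3K4me3 had 5 of 45 peaks (11.1%) in the untreated list only, against 9.53%, and 15 of 61 (24.6%) in the vitamin C list only, against 14.3%, of which 5 lay near Ms4a2 and 4 near Cpa3. For PU.1, 32 of 55 untreated peaks (58.2%) had no counterpart, against 63.9%, and 1 of 24 with vitamin C (4.17%), against 4.83%. The whole PU.1 list went from 61611 to 23522 peaks, a ratio of 0.382, so fewer PU.1 peaks with vitamin C were not particular to these genes. Runx1 peaks were few, 2 untreated with 1 unshared and 3 with vitamin C with 2 unshared, where the whole lists had 18.2% and 49.3% unshared. For H3K4me1 and PU.1 the members' shares were near those of the whole lists.

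**Figure D3:**
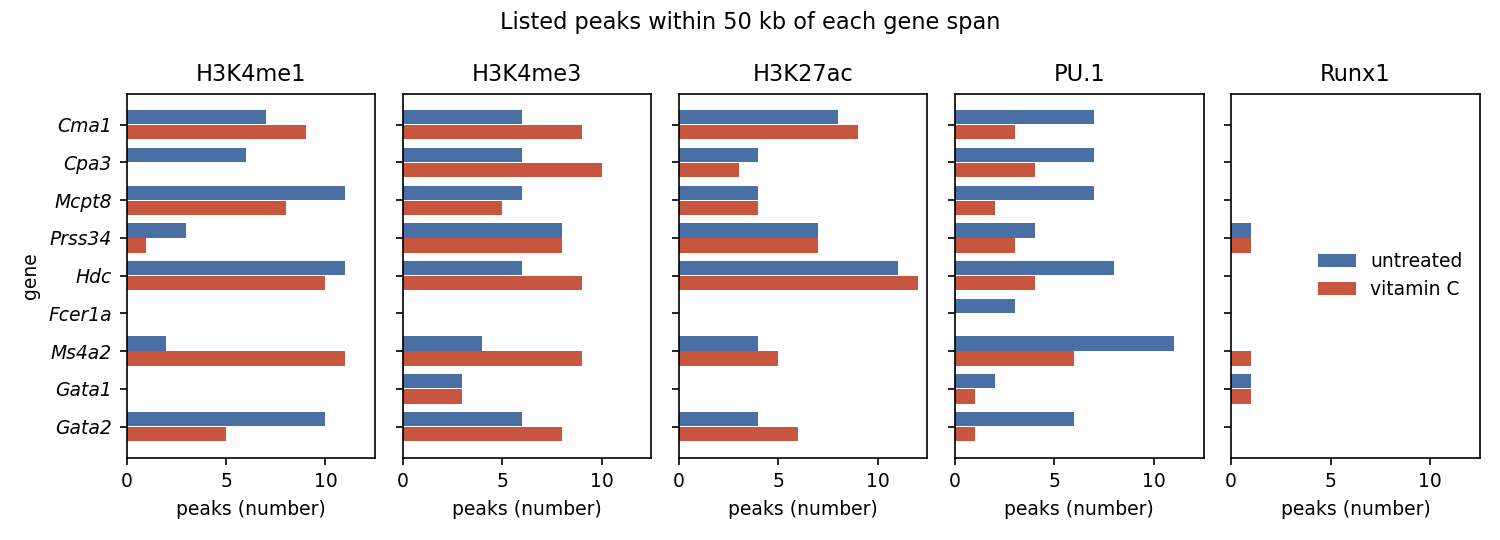
Number of listed peaks within 50 kb of each gene's span, by mark, for the untreated (blue) and vitamin C (red) libraries. H3K4me1 bars go from 6 to 0 at Cpa3 and from 2 to 11 at Ms4a2, PU.1 bars are shorter with vitamin C at all 9 genes, as the whole PU.1 list is (61611 and 23522 peaks), and Fcer1a has bars for untreated PU.1 only.

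An H3K4me3 peak covered a start of Cpa3, Mcpt8, Hdc and Gata2 in both libraries, 4 of 8 measured members, where 83.9% of 8089 measured genes with a promoter entry had one in 1 or both. H3K27ac covered the same 4 starts in both libraries and that of Cma1 with vitamin C, where the share of all such genes was 77.7%. The measured members without H3K4me3 over the start, Cma1, Prss34, Ms4a2 and Gata1, were the 4 with the lowest untreated RPKM. A PU.1 peak lay over the start of Hdc only, and a Runx1 peak over none of the 9.

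At Cma1 (chr14:55941451-55944675) an H3K27ac peak with vitamin C, chr14:55944429-55946794, covered the start at 55944675. In the untreated library the corresponding peak, chr14:55944913-55946798, stopped 238 bp upstream of it. The chromatin just upstream of Cma1 was thus listed as acetylated in both libraries, with a different peak edge at the start. Near Cma1, 2 further H3K27ac peaks were listed untreated only, among them chr14:55947075-55947597, 2.4 kb upstream, and 2 with vitamin C only, chr14:55928506-55930154 and chr14:55903420-55903816, both downstream. H3K4me3 lay upstream in both libraries as well, at chr14:55945300-55946670 untreated and chr14:55945891-55946670 with vitamin C. Under these marks the untreated list held 2 weak PU.1 peaks, 773 bp and 1669 bp upstream of the start (scores 3.4 and 3.05), which had no counterpart with vitamin C. The strongest PU.1 peak near Cma1, 17.4 kb downstream, scored 28.7 untreated and 27.6 with vitamin C. PU.1 and Runx1 scores are the authors' own and undefined, and lists of different lengths give scores that cannot be compared as amounts.

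At Ms4a2 (chr19:11615517-11623790) H3K4me1 peaks went from 2 untreated to 11 with vitamin C, and the bases they covered from 7522 to 32657. Of the 11 peaks 9 overlapped no untreated peak, among them 1 of 15296 bp over the start, chr19:11623225-11638520, that reached into Ms4a3. The deposited value of that interval, 8.01e-06, was the weakest of the 11. Another of the 9, chr19:11621257-11622246 with a deposited value of 1.78e-08, lay inside Ms4a2, 1.5 kb downstream of the start. The rest lay in Ms4a3, in Ms4a6d or in no protein-coding gene span. Of 21883 genes placed, 0.704% gained as many H3K4me1 peaks or more, a cut-off taken from Ms4a2 after its values were seen. The vitamin C list also held 5 unshared H3K4me3 peaks, of which the nearest began 283 bp downstream of the start (chr19:11623199-11623436). Its deposited value, 8.31e-06, was the weakest of the H3K4me3 peaks near Ms4a2 in that library. Another of the 5, chr19:11622775-11623070 with a deposited value of 6.65e-08, also lay inside Ms4a2. The rest lay inside Ms4a3, whose RNA was at 268 and 245 RPKM. H3K27ac did not follow, with 4 and 5 peaks that were all shared the nearest 8.6 kb from the start. PU.1 peaks numbered 11 and 6, and the strongest, 11.9 kb upstream in Ms4a3, scored 81.3 and 35.8. A Runx1 peak at chr19:11659235-11659437, 35.5 kb upstream, was in the vitamin C list only (score 9.51).

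**Figure D4:**
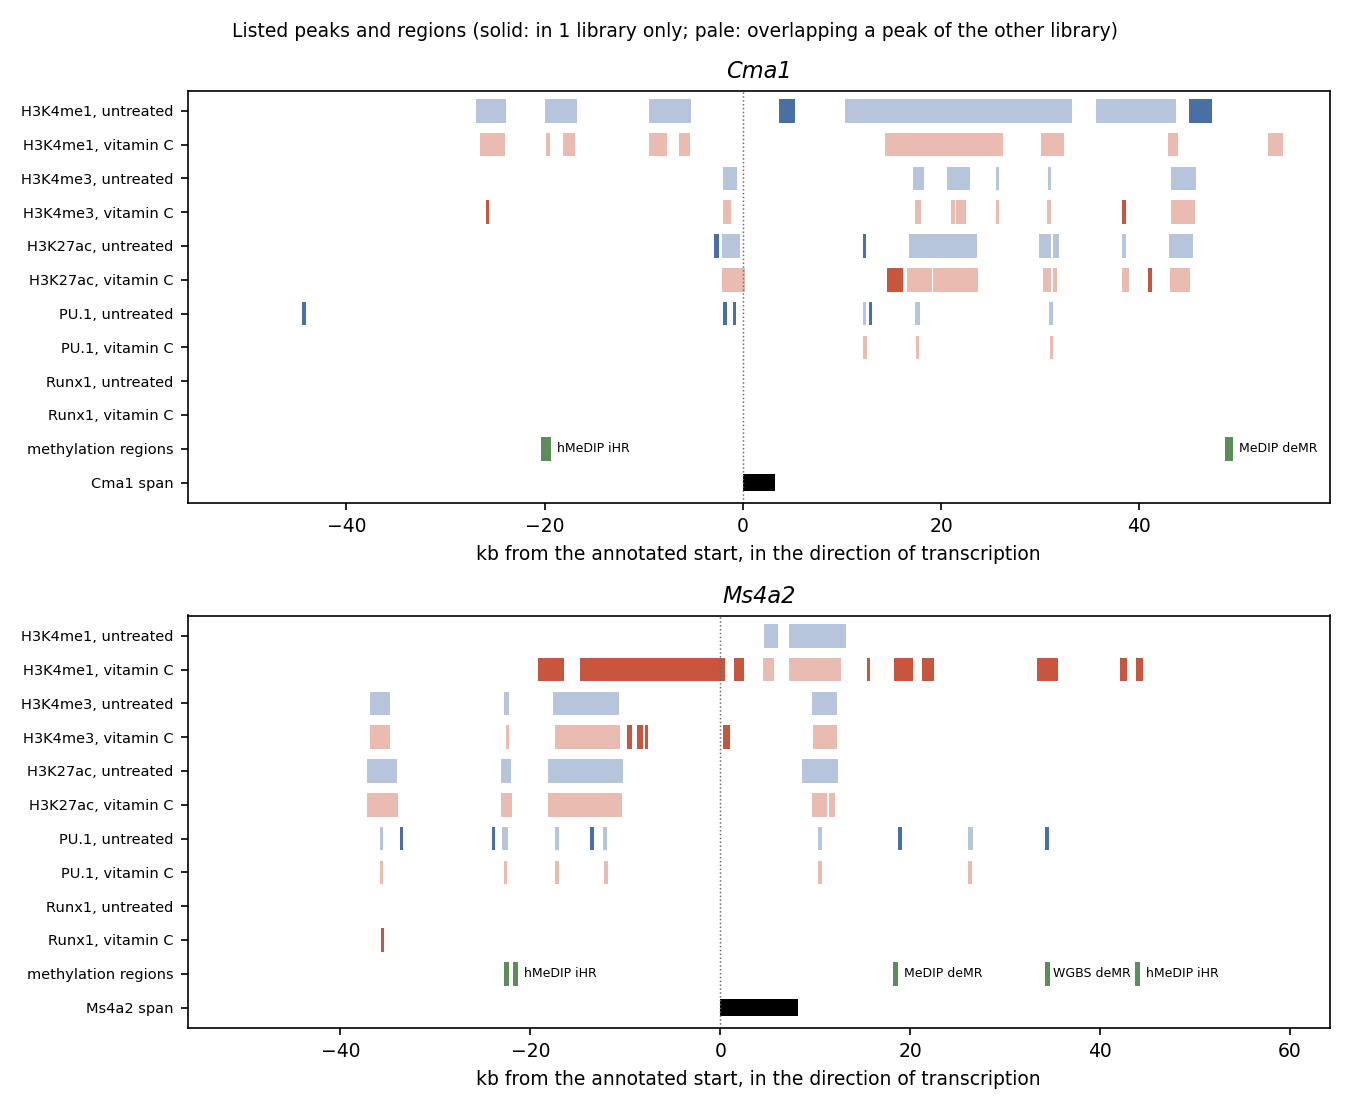
Listed peaks and regions around Cma1 and Ms4a2, by distance in kb from the annotated start in the direction of transcription; blue is untreated, red vitamin C, solid colour marks a peak in 1 library only and pale colour a peak shared by both, green marks methylation regions and black the gene span. Near Ms4a2 the solid red H3K4me1 intervals, 9 in number, include the wide one that reaches the start, while H3K27ac is pale throughout.

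Cpa3 (chr3:20215616-20242209) showed the opposite for H3K4me1. The untreated list held 6 peaks, including an interval of 37925 bp over the start and most of the gene (chr3:20218969-20256893), and the vitamin C list held 0 within 50 kb. Of 9765 genes with at least as many untreated peaks, 3.07% had 0 with vitamin C, again a cut-off chosen after the values were seen. The marks at the start were shared: H3K4me3 at chr3:20238363-20243340 and H3K27ac at chr3:20238397-20245500 untreated both had a vitamin C counterpart over the start. Cpa3 RNA was 1.34-fold higher in the library without listed H3K4me1. A PU.1 peak inside the gene, 12.6 kb downstream of the start (chr3:20228937-20229543), was the strongest of the 9 genes in both lists, at 82.5 and 72, and PU.1 peaks numbered 7 and 4. H3K27ac at chr3:20223077-20223957, also inside the gene, was in the vitamin C list only.

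Gata1 (chrX:7959260-7976663) had no H3K4me1 or H3K27ac peak within 50 kb in either library. Of 9854 measured genes placed, 18 (0.183%) had none, and 5 of these were among the 290 measured genes on X, where H3K4me1 peaks numbered 888 untreated and 399 with vitamin C. An H3K4me3 peak and a PU.1 peak coincided inside the gene, 3.7 kb downstream of the start, in both libraries, at chrX:7963671-7964238 and chrX:7963631-7964235 untreated. The PU.1 score there was 33.4 untreated and 9.79 with vitamin C. At the 3′ side of Gata1, Runx1 was listed in both libraries over the edge of the Hdac6 span that faces Gata1, with scores of 13.8 and 25.4. With no H3K27ac or H3K4me1 peak listed in either library, the lists could show no difference in these marks beside the 3.98-fold one in Gata1 RNA.

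**Figure D5:**
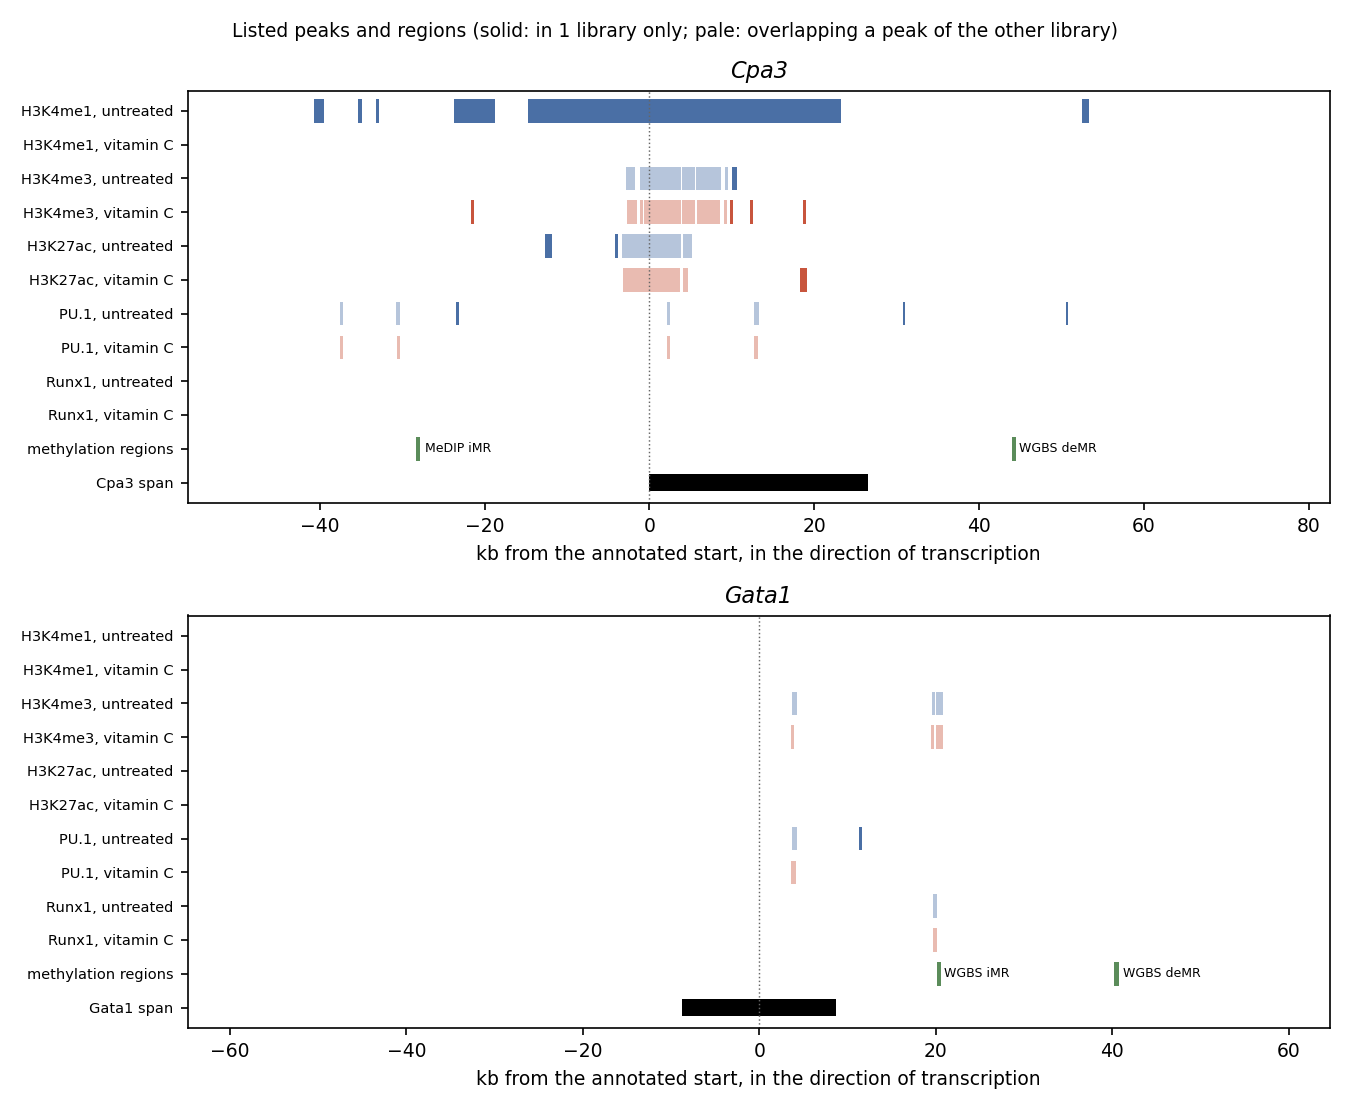
The same map for Cpa3 and Gata1, in kb from the annotated start, with blue for untreated, red for vitamin C, solid for peaks of 1 library only, pale for shared peaks, green for methylation regions and black for the gene span. The solid blue H3K4me1 interval of 37925 bp over Cpa3 has no red counterpart, and the H3K4me1 and H3K27ac lines of Gata1 are empty.

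H3K4me3 and H3K27ac lay over the starts of Hdc, Mcpt8 and Gata2 in both libraries, while H3K4me1 over those starts was listed in 1 library only. At Hdc (chr2:126593659-126624025) H3K4me3, H3K27ac and PU.1 peaks lay over the start in both libraries, the PU.1 peak at chr2:126618512-126618869 scoring 10.5 untreated and 4.55 with vitamin C. That peak contains the PU.1 match shown above. An untreated H3K4me1 peak over the start, chr2:126615574-126624095, was not listed with vitamin C, while 3 H3K27ac peaks inside Hdc were listed with vitamin C only (chr2:126605657-126606044, chr2:126606365-126606703 and chr2:126620653-126621309). The strongest PU.1 peaks at Hdc scored 52.1 untreated, in the neighbouring gene Gabpb1, and 53 with vitamin C, 8.6 kb downstream of the start. At Mcpt8 (chr14:56082163-56085499) the start was covered by H3K4me3 and H3K27ac in both libraries and by an H3K4me1 peak of 5190 bp with vitamin C only (chr14:56082804-56087993).

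At Gata2 (chr6:88193891-88207032) broad peaks covered both starts in both libraries. H3K27ac spanned 12947 bp untreated and 12927 bp with vitamin C, and H3K4me3 10747 and 10758 bp. Over the outer start an H3K4me1 peak of 6060 bp, chr6:88189331-88195390, was in the untreated list only, and PU.1 peaks numbered 6 and 1, beside the shorter PU.1 list with vitamin C. Prss34 (chr17:25298394-25300168) had no peak over its start, and its nearest shared H3K4me3 peaks lay 1.6 kb upstream untreated and 1.9 kb upstream with vitamin C. Around Fcer1a (chr1:173221269-173227232) the only listed peaks were 3 of PU.1, untreated, with scores of 13.7, 6.5 and 4.97, none closer than 29.5 kb to the start. The absence of histone peaks there stood beside its 0 and 4 reads.

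Methylation regions came from 6 lists of positions. MeDIP-seq captures methylated DNA, hMeDIP-seq hydroxymethylated DNA, and WGBS (whole-genome bisulfite sequencing) reads both forms without telling them apart. Neither the direction that the authors' tags deMR, iMR and iHR stand for nor the libraries compared are stated, and the lists hold no values, so they give positions only. Within 50 kb of 8 members lay 24 regions, and of Fcer1a none. A WGBS deMR was near 6 of 9 members, against 36.0% of the 21883 genes placed, and a MeDIP deMR near 5, against 28.0%. WGBS iMRs were near 3 (32.1% of all genes), MeDIP iMRs near 2 (21.9%), hMeDIP iHRs near 2 (37.0%) and mutant MeDIP regions near 2 (31.0%). The MeDIP and hMeDIP lists hold 0 regions on X, so Gata1 could have had only WGBS regions. Of the 24 regions 17 overlapped a peak of 1 or more ChIP-seq lists.

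Ms4a2 had the most hMeDIP iHRs of the members, 3, together with 1 MeDIP deMR and 1 WGBS deMR. The WGBS deMR, chr19:11589314-11589500 in Ms4a6d, and the MeDIP deMR, chr19:11605001-11605500, each overlapped an H3K4me1 peak of the vitamin C library and a PU.1 peak of the untreated library. An hMeDIP iHR at chr19:11579501-11580000 also overlapped an H3K4me1 peak of the vitamin C library, and another at chr19:11646251-11646500 lay under H3K4me3, H3K27ac and PU.1 peaks of both. These regions were 18.2 to 43.7 kb from the start of Ms4a2 and not at it.

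Regions nearer to a start or inside a gene were found at Gata2, Hdc and Prss34. In Gata2 a mutant MeDIP region, chr6:88197001-88198000, ended 664 bp before the inner start under H3K4me3 and H3K27ac of both libraries, and a MeDIP deMR lay at its 3′ end (chr6:88206001-88207000). A WGBS iMR, chr6:88189713-88189859, lay 4.0 kb upstream of the outer start of Gata2. It overlapped an untreated H3K4me1 peak and a vitamin C H3K4me3 peak. The other Gata2 regions, a MeDIP iMR, a WGBS deMR and a MeDIP deMR, lay 11.9, 27.9 and 30.3 kb from the nearer start. Hdc held 3 regions inside the gene, the MeDIP deMRs chr2:126603501-126604000 and chr2:126611501-126612000 and the WGBS deMR chr2:126606121-126606299, and all 3 overlapped untreated H3K4me1 peaks. At Prss34 a WGBS iMR, chr17:25293471-25293771, lay 4.6 kb upstream under shared H3K4me3 and H3K27ac. Farther upstream the mutant MeDIP region chr17:25260001-25260500 lay within the MeDIP deMR chr17:25259751-25260500, the only position near a member where regions of different lists overlapped. Near Cma1 the regions, 1 hMeDIP iHR and 1 MeDIP deMR, were 19.3 and 48.7 kb from the start, and near Cpa3, a MeDIP iMR and a WGBS deMR, 27.8 and 44.0 kb. Near Gata1 the WGBS iMR chrX:7947616-7947807, in Hdac6, overlapped the Runx1 peak of the vitamin C library. The only region near Mcpt8, the WGBS deMR chr14:56107241-56107276, lay 22.0 kb upstream.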

How the data were processed

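The series measured polyA RNA-seq, ChIP-seq, MeDIP-seq, hMeDIP-seq and WGBS in 24 samples, of which 6 were not analysed here. RNA-seq tables give whole-number counts per gene and RPKM (reads scaled by gene length and library size), both as the authors deposited them, and 36 genes untreated and 45 with vitamin C have a count of 0 with an RPKM above 0. Build mm10 and the tools MACS2 2.1.0.2, Picard, SAMtools (0.1.2, 0.1.16, 0.1.8), Novoalign 3.02.08, CASAVA 1.8.2 and BWA are listed, without roles, per the submitters' processing notes. How reads were counted, and on which annotation, is not given in the sources used here. Reads per RPKM differed between the libraries by 1.278, as did total counts (1.28). Histone peaks have a deposited p-value, or possibly a q-value, since the files name neither. For PU.1 and Runx1 the authors deposited a score with no definition, and 1159 and 259 (PU.1) and 139 and 337 (Runx1) repeated intervals were removed, untreated and vitamin C in that order. Region lists hold positions only, deposited without other values.

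Of 22371 genes, 21611 had a symbol. Spans and starts are from RefSeq GRCm38.p6, the assembly of mm10, and all 9 members matched its promoter table. Starts in the histone, transcription factor and WGBS files were read as counted from 0 and written from 1, which the files show only for PU.1 and Runx1. A peak or region was near within 50 kb of a span and shared at an overlap of 1 bp. Ratios of RPKM have exact 95% binomial intervals of the reads between libraries, computed with Python 3.11.15, numpy 2.4.6, scipy 1.17.1 and pandas 2.3.3 and tested on simulated data. With 1 library a group no test was run. A gene was measured if either library reached 1 RPKM, and called meant 2-fold on the scale of RPKM + 0.5, which understates changes of low genes. All members are named, and of each list those past 2-fold, up to 4 others of highest RPKM and neighbours within 50 kb. Lyn, Slc18a2, Cd200r3, the partner transcription factors after the 4 most abundant and the listed genes with 0 reads are exceptions, picked with their values in view. The members and lists were chosen with earlier results of these data known.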

Additional observations from a re-analysis of the deposited data

How the results depend on the processing

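Over 43 results and 155 alternative settings, 131 values were classed as kept, 24 as moved and 0 as reversed. A log2 change or a share was kept if it stayed inside the 95% counting interval of the main value, and a count if it stayed within 1.5-fold. Values from few reads or peaks have wide intervals and so were kept more easily. The count of members 2-fold or more higher was 3, and became 2 at a minimum of 5 RPKM and 4 at 1.5-fold, and the count lower was 0 throughout. With a pseudocount of 0.1 RPKM the log2 change was 5.00 for Cma1, 2.14 for Ms4a2 and 1.90 for Gata1, and with 1 RPKM it was 3.52 for Cma1 and 1.34 for Gata1, since low values weigh more against a small pseudocount. Scaling the median of all genes to 0 gave 0.46 for Cpa3, 0.41 for Hdc and 0.67 for Gata2. Peaks near the members over the 5 marks numbered 194 untreated and 178 with vitamin C, and became 74 and 74 within 10 kb, 378 and 332 within 100 kb, and 87 and 81 among peaks stronger than their list's median. Among those stronger peaks the shared share was 40% for vitamin C H3K4me1, 91.3% for vitamin C H3K4me3, 100% for vitamin C PU.1 and 100% for Runx1 in both libraries, and with sharing counted within 1 kb it was 97.8% for untreated H3K4me3 and 95.2% for untreated H3K27ac. The Runx1 shares of 100% rest on 1 peak in each library, the shared peak near Gata1. No Runx1 peak lay within 10 kb, so the 10 kb setting gives no share for Runx1. Methylation regions near the members numbered 24, or 7 within 10 kb, 49 within 100 kb and 14 of at least 500 bp. No paired analysis was possible because each group held 1 library, and for the same reason no library could be left out. Depth limits Fcer1a (0 and 4 reads) and widens the interval of Cma1 (28 reads untreated). ChIP-seq depth is unknown, so peaks missing from 1 list cannot be told apart from peaks below its threshold.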
